A study of Mus musculus with 2 samples.

Results

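Cxcl1, Cxcl2, Cxcl3 and Cxcl5 encode the mouse CXC chemokines best known for attracting neutrophils, and Cxcr2 encodes the receptor they share. These 5 genes, of 32285 in the deposited count tables, were taken by name, and all 5 were found. Their transcripts were counted as UMIs (unique molecular identifiers, which mark single captured transcript molecules) in marker-gated cells of mouse tumours. The study compared tumours of mice given motolimod, a small-molecule agonist of Toll-like receptor 8, with control tumours. Each group comprised 5 mice, whose dissociated tumours were enriched for CD45-positive leukocytes on magnetic beads before roughly 30000 cells entered a 3′ droplet library. There is 1 library per group, named Motolimod and Control here. The tumour model, the strain and age of the mice, the dose, the treatment of the control mice and any pooling of mice are not given in the sources used here. With 1 library per group no difference has a replicate check and none was tested. Each interval is an exact 95% interval that covers counting error only.

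Cxcl1, Cxcl2, Cxcl3 and Cxcl5 carry the ELR motif that marks CXC chemokines acting on Cxcr2, a G protein-coupled receptor of neutrophils. Cxcr2 draws neutrophils out of marrow and blood along a ligand gradient, and it is taken up into the cell when ligand binds. Macrophages, stromal cells, epithelial cells and neutrophils themselves can transcribe the ligands within a short time of an NF-kB stimulus, and their messages are short-lived.

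The 4 ligand genes lie close to each other. In the GENCODE annotation of mm10 they lie on the + strand of chromosome 5 between 90759360 and 90905938. This span of 146579 bases also holds Ppbp and Pf4, both between Cxcl5 and Cxcl3, and was not searched for further genes. Cxcr2 lies on chromosome 1 from 74153989 to 74161246, on the + strand. The stretches just before the RefSeq starts of Cxcl1, Cxcl2 and Cxcl3 are shown because these 3 ligands carried nearly all of the signal described below. Each line gives the 100 bases before the start (RefSeq, GRCm38.p6, + strand), with capitals for 2 runs of letters that all 3 share, GGGAATTTCCC, which holds an NF-kB site sequence, and ATAAAAGG, a TATA-like sequence. The windows are chr5:90891145-90891244 for Cxcl1, chr5:90903799-90903898 for Cxcl2 and chr5:90786001-90786100 for Cxcl3.
Cxcl1: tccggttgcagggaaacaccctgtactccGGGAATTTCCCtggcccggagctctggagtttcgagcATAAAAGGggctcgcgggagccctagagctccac
Cxcl2: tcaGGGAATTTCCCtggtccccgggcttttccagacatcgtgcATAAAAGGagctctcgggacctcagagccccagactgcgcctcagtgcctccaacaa
Cxcl3: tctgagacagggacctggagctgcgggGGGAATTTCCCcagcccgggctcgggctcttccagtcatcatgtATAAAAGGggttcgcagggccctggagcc
These were found as runs of at least 8 bases common to the 3 promoter windows, taken from 250 bases before to 50 after the start. A further shared run of 13 bases lies after the start. Searched on both strands, GGGAATTTCCC occurred in 14 of 32851 RefSeq windows of that length (0.0426%) and ATAAAAGG in 577 (1.76%). Windows with all 3 runs were those of Cxcl1, Cxcl2 and Cxcl3 alone, and since the runs were read from these genes this is a description. Counted from the RefSeq start, GGGAATTTCCC began at −71 in Cxcl1, −97 in Cxcl2 and −73 in Cxcl3. The GENCODE genes start elsewhere, at 90891241 for Cxcl1, 90903871 for Cxcl2 and 90786103 for Cxcl3. For Cxcl1 and Cxcl2 that start lies inside the bases shown, so these positions depend on the annotation. None of the 3 runs was found in the window of Cxcr2, and the window of Cxcl5 was not searched. The last 500 bases of the 5 transcripts shared no stretch of 50 bases, and the longest identical run, 16 bases, was between Cxcl2 and Cxcl3.

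The Motolimod library held 62057685 UMIs over 10037 barcodes and the Control library 127609378 over 8099, with medians of 3369 and 12868 UMIs per barcode. The filter on genes, UMIs and mitochondrial share passed 9314 Motolimod barcodes (92.8%) and 7484 Control barcodes (92.4%). Passed barcodes shared by both libraries numbered 94. Marker gates placed 7174 Motolimod and 6138 Control barcodes in 1 lineage. Droplets with markers of more than 1 lineage were set aside as mixed, as were clusters of gated macrophages led by markers of another lineage. Mixed barcodes numbered 1351 (14.5%) with Motolimod and 961 (12.8%) in Control. Neutrophils made up 2581 Motolimod barcodes (27.7%) and 455 Control barcodes (6.08%), and all 10 neutrophil markers were detected in each. Macrophages made up 3808 (40.9%) and 3938 (52.6%), with all 9 markers detected in each. Gated epithelial or tumour cells, which a pure CD45 selection would not hold, were 77 (0.827%) with Motolimod and 764 (10.2%) in Control. Levels are summed UMIs scaled to the UMI total of the gate as CPM, counts per 1000000 UMIs. They were not scaled by transcript length and are compared between cells, not between genes.

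Cxcl2, the macrophage inflammatory protein-2 gene, was highest in neutrophils of both libraries. It reached 49208 CPM (49030 to 49386) in Motolimod neutrophils and 33042 CPM (32705 to 33382) in Control neutrophils. The ratio of Motolimod over Control was 1.49 (1.47 to 1.51). Among single neutrophils the 10th percentile, median and 90th percentile were 7630, 34082 and 103540 CPM with Motolimod and 2717, 22831 and 77091 CPM in Control. The 2 distributions thus overlapped over most of their range. Monocytes followed, at 3869 CPM with Motolimod and 1620 CPM in Control, a ratio of 2.39 (2.30 to 2.48). Macrophages held 2336 and 719 CPM, a ratio of 3.25 (3.21 to 3.29). Dendritic cells, too few for a ratio, stood at 662 CPM (67 cells) and 104 CPM (207 cells). Cxcl2 was not limited to leukocytes. Gated epithelial or tumour cells (77 and 764 cells) held 595 and 484 CPM, and fibroblasts, 14 cells in each library, 567 and 617 CPM. In T cells, which are not known as a source of Cxcl2, the values were 288 and 186 CPM, a ratio of 1.55 (1.38 to 1.74). The tenth of T cells with most Cxcl2 held 88.3% and 97.3% of its T cell UMIs, so these values are not an even background over cells.

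Detection was compared once each cell had been thinned to 1000 UMIs, so that depth was equal. Cxcl2 was then found in 98.8% of Motolimod and 95.3% of Control neutrophils. In macrophages it was found in 62.1% (60.6 to 63.7) and 29.3% (27.9 to 30.8), in monocytes in 52.3% (45.4 to 59.2) and 23.4% (19.3 to 28.0), and in T cells in 13.4% (9.91 to 17.5) and 5.71% (3.42 to 8.88). Macrophages thus had larger shares than monocytes but lower summed levels. Both lay above the share seen in T cells. Before thinning, the shares were 80.4% and 53.0% of macrophages, at median depths of 6343 and 15085 UMIs, and 30.3% and 14.9% of T cells, at 4874 and 5786 UMIs. The median macrophage held 1533 CPM of Cxcl2 with Motolimod and 50.1 CPM in Control. The tenth of macrophages with most Cxcl2 held 48.3% of its macrophage UMIs with Motolimod and 64.1% in Control.

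Neutrophil RNA moved with the libraries, so its amount in macrophages was measured from S100a8 and S100a9, the abundant calprotectin genes of neutrophils. Their sum was 86.9 CPM in Motolimod macrophages and 34.6 CPM in Control macrophages, against 62077 and 73422 CPM in neutrophils. At the ratio of Cxcl2 to these genes in gated neutrophils, that amount would carry 68.9 of the 2336 CPM of Cxcl2 with Motolimod (2.95%) and 15.6 of the 719 CPM in Control (2.17%). For Cxcl3 it would carry 6.23% and 4.67% of the macrophage level. These values are no upper limit, since barcodes with several neutrophil markers had been set aside as mixed and ungated barcodes in neutrophil clusters held Cxcl2 with less S100a8 and S100a9. In macrophages with no UMI of either gene the Cxcl2 ratio was 3.33 (3.29 to 3.38).

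**Figure D1:**
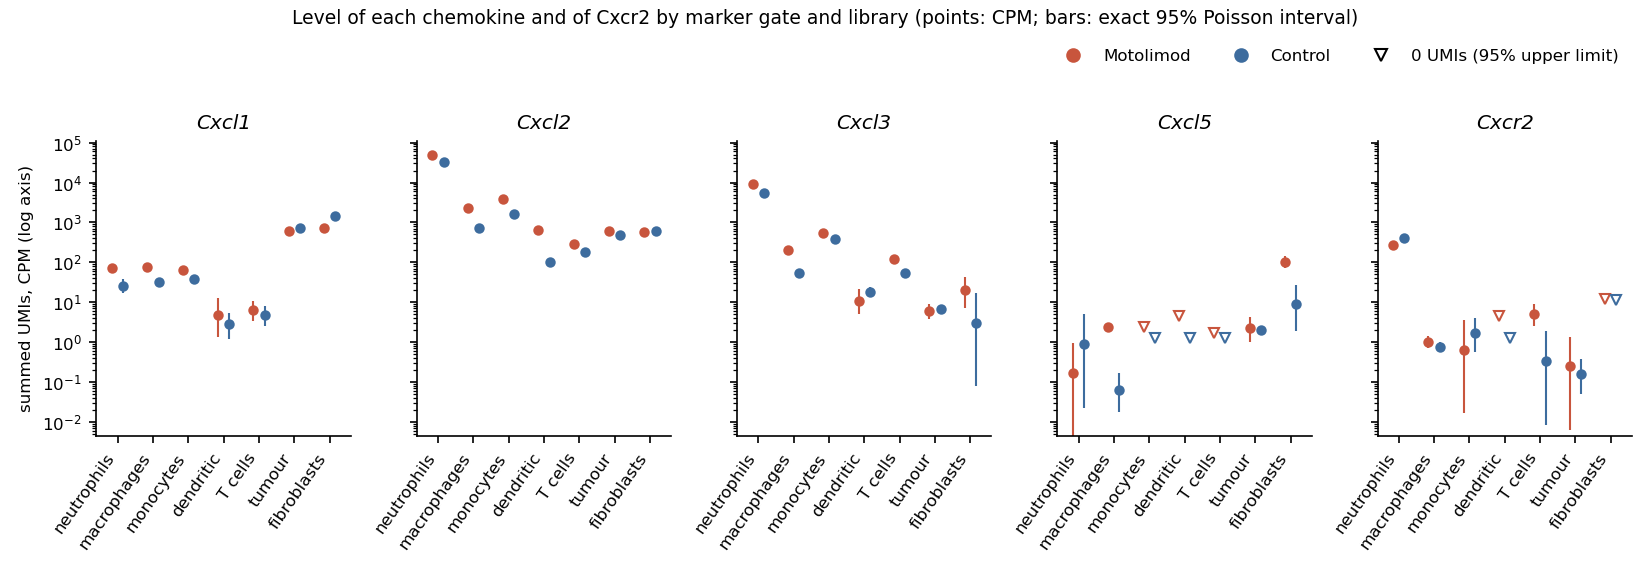
Levels (CPM of summed UMIs, log axis) of Cxcl1, Cxcl2, Cxcl3, Cxcl5 and Cxcr2 in 7 marker gates, Motolimod left of Control. Points are CPM, bars are exact 95% Poisson intervals and open triangles are upper limits where no UMI was counted. Cxcl2 and Cxcl3 peak in neutrophils and Cxcl1 in tumour cells and fibroblasts. Among the gates shown, Cxcr2 is near or below 5 CPM in every gate with a UMI other than neutrophils.

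Cxcl3, a close relative of Cxcl2, had the same leading gate. Neutrophils held 9168 CPM (9091 to 9245) with Motolimod and 5442 CPM (5306 to 5581) in Control, a ratio of 1.68 (1.64 to 1.73). After thinning it was found in 69.6% and 50.4% of neutrophils. Macrophages held 206 and 54.9 CPM, a ratio of 3.75 (3.60 to 3.91). That ratio rested largely on the macrophage cluster numbered 7 below, which held 4364 of 6468 Cxcl3 UMIs with Motolimod and 166 of 3390 in Control, and without it the ratio was 1.43 (1.35 to 1.51). Cxcl3 was lower with Motolimod in macrophage cluster 5, at 12.98 and 21.9 CPM, a ratio of 0.593 (0.429 to 0.804), and in cluster 6, at 28.5 and 44.4 CPM, a ratio of 0.643 (0.451 to 0.908). It was higher in clusters 1, 2, 3, 4 and 10, at ratios from 1.82 to 4.66. Monocytes held 543 and 383 CPM, a ratio of 1.42 (1.29 to 1.55). Few cells carried it: 16.1% of Motolimod macrophages and 6.25% of Control macrophages had a UMI before thinning. In T cells Cxcl3 stood at 119 and 52.8 CPM, a ratio of 2.25 (1.84 to 2.76), from 27 of 340 and 7 of 315 cells. The Control level in macrophages was thus close to that in T cells, while the Motolimod level was above it. Those T cell UMIs lay in few cells, and in Control the dendritic cells (18.4 CPM) and tumour cells (6.91 CPM) held less, so the T cell value is no shared background level. Thinned shares were 7.36% (6.54 to 8.24) and 2.20% (1.76 to 2.71) of macrophages, against 3.26% (1.64 to 5.77) and 1.27% (0.347 to 3.22) of T cells, and the Control intervals overlapped.

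Cxcl1, the KC chemokine gene, had other sources. Fibroblasts, 14 cells in each library, held 738 CPM (644 to 842) with Motolimod and 1429 CPM (1303 to 1565) in Control. Gated epithelial or tumour cells held 599 CPM (576 to 624) and 705 CPM (696 to 714). Before thinning, Cxcl1 was found in 70 of 77 and 633 of 764 of them, at median depths of 48718 and 40062.5 UMIs. After thinning, the shares were 35.1% (24.5 to 46.8) with Motolimod and 36.1% (32.7 to 39.6) in Control, intervals that overlapped. The gated epithelial or tumour cells fell into a keratin-rich cluster led by Krt8, Hspb1 and Krt19 and a cluster led by Rhox5, Phgdh and Ube2c. Cxcl1 stood at 704 and 869 CPM in the first and at 532 and 592 CPM in the second. In leukocytes it was scarcer. Macrophages held 76.0 and 32.6 CPM, a ratio of 2.33 (2.20 to 2.48), monocytes 63.8 and 37.6 CPM, a ratio of 1.70 (1.28 to 2.25), and neutrophils 71.4 and 26.1 CPM, a ratio of 2.73 (1.88 to 4.13). The monocyte values came from 18 Motolimod and 10 Control cells, and their ratio ran from 0.781 with doubled gate thresholds to 13.3 in cells with a middle number of UMIs. The neutrophil values came from 426 UMIs in 105 Motolimod cells and 29 UMIs in 17 Control cells. With mixed droplets kept, the neutrophil ratio turned to 0.886 (0.756 to 1.04). T cells held 6.39 and 4.76 CPM.

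Cxcl5, whose product is also known as LIX, was rare, with 164 UMIs in the Motolimod library and 96 in Control. Macrophages held 75 of them with Motolimod and 4 in Control, which gave 2.39 CPM (1.88 to 2.99) and 0.0648 CPM (0.0176 to 0.166) and a ratio of 36.9 (13.8 to 139). Those 75 UMIs came from 15 of 3808 cells, and 57 of them from 1 macrophage cluster, number 7 below. Fibroblasts held 31 UMIs with Motolimod, in 2 cells, and 3 in Control, in 1 cell. Tumour cells held 2.24 CPM (1.02 to 4.24) and 1.97 CPM (1.51 to 2.53), intervals that overlapped. No Cxcl5 UMI was counted in monocytes, dendritic cells or T cells of either library, and neutrophils held 1 UMI in each.

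The gates that carried a ligand's UMIs differed between the libraries, as did both the number of cells in each gate and the levels within it. Neutrophils carried 58.7% (58.6 to 58.9) of all Cxcl2 UMIs with Motolimod and 25.4% (25.2 to 25.6) in Control, and 66.5% and 35.9% of Cxcl3 UMIs. Macrophages carried 14.7% and 30.8% of Cxcl2 UMIs, and tumour cells 0.479% and 10.5%. Tumour cells carried 35.2% (34.1 to 36.4) of Cxcl1 UMIs with Motolimod and 78.4% (77.9 to 78.9) in Control, and macrophages 34.8% and 7.12%. These shares depend on which barcodes the bead selection and the filter let through. With the stricter filter on genes and UMIs, neutrophils carried 26.9% and 8.36% of Cxcl2 UMIs.

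**Figure D2:**
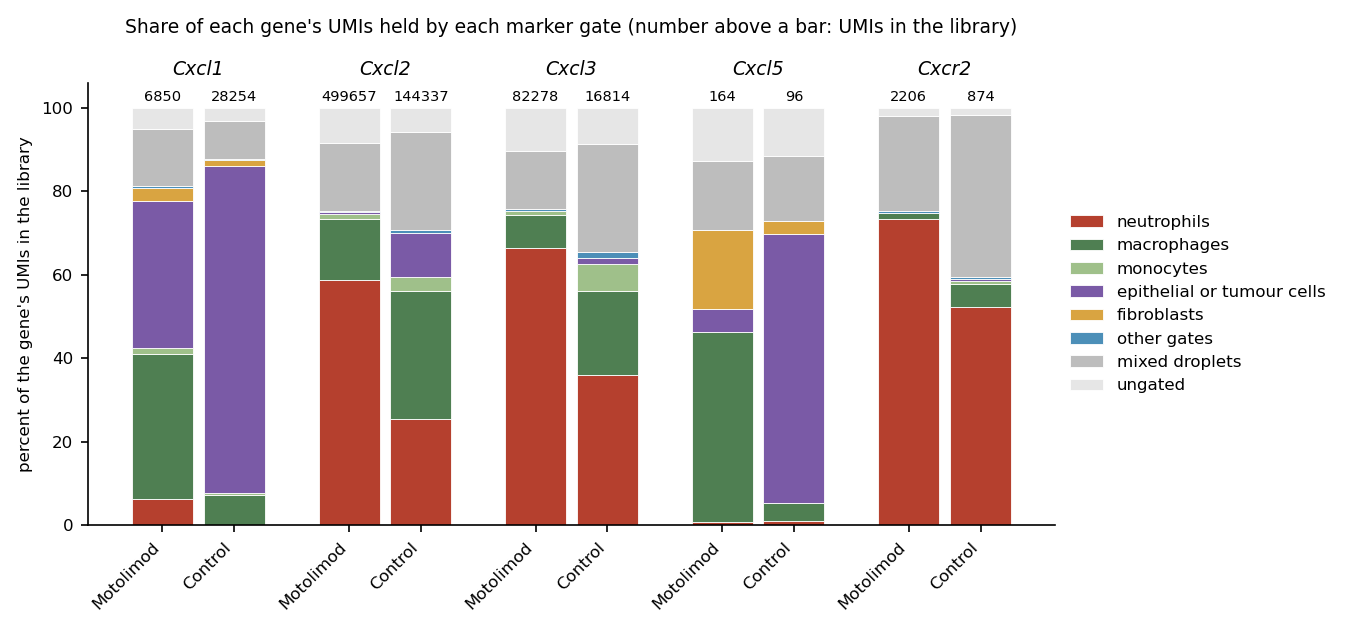
Percent of each gene's UMIs held by each marker gate in the Motolimod bar (left) and the Control bar (right) of every pair. The number above a bar is the gene's UMI count in that library. Neutrophils hold 58.7% and 25.4% of Cxcl2, tumour cells 35.2% and 78.4% of Cxcl1, and mixed droplets up to 39.0% of a gene's UMIs.

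Cxcr2, the receptor, was nearly confined to neutrophils among the gates. It stood at 271 CPM (258 to 285) in Motolimod neutrophils and 413 CPM (376 to 452) in Control neutrophils, a ratio of 0.657 (0.592 to 0.731). After thinning, 18.8% (17.3 to 20.4) and 32.6% (28.2 to 37.3) of neutrophils had a Cxcr2 UMI. Without thinning the shares were 31.1% and 46.4%. Macrophages held 1.02 and 0.777 CPM, from 32 and 48 UMIs, and after thinning 0.0535% and 0.0511% of them had one. T cells held 11 UMIs, all in 1 cell, with Motolimod and 1 in Control. No Cxcr2 UMI was found in dendritic cells. By a limit of 3 counts, 0 of 67 Motolimod cells and 0 of 207 Control cells allow up to 4.48% and 1.45% of cells with a UMI, which is no limit on cells that express the gene. Of all Cxcr2 UMIs, 73.3% lay in gated neutrophils with Motolimod and 52.4% in Control, and a further 22.6% and 39.0% in mixed droplets. The lower level with Motolimod was not seen beyond counting error in neutrophils that passed the stricter filter, where the levels were 239 and 258 CPM, a ratio of 0.923 (0.733 to 1.17).

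Across all genes at 10 CPM or more on average, the 2 libraries differed in a larger share of genes in neutrophils than in macrophages, monocytes or T cells. The gates were not matched in depth. Control neutrophils held 1110196 UMIs, against 2873828 in monocytes, 2938285 in T cells and 61764364 in macrophages. Counting error alone takes more genes past 1.5-fold where UMIs are few, and its part in these shares was not tested. In neutrophils 24.7% of 5263 genes were higher with Motolimod by 1.5-fold or more and 15.5% lower by as much, and the median log2 ratio was 0.13. Of the 4 members at that level, Cxcl1 and Cxcl3 were past 1.5-fold higher, Cxcr2 past 1.5-fold lower, and Cxcl2 just short of it. Relative to the median gene, with median-of-ratios scaling, the ratios were 1.36 for Cxcl2, 1.54 for Cxcl3 and 0.601 for Cxcr2. In macrophages 8.41% of 7300 genes were that much higher and 4.99% that much lower, and all 3 members at that level (Cxcl1, Cxcl2 and Cxcl3) were among the higher ones. In monocytes 10.8% of 6928 genes were higher and 7.12% lower, and 2 of 3 members (Cxcl1 and Cxcl2) were higher. In T cells 14.2% of 7563 genes were higher and 7.33% lower, and 2 of 2 members (Cxcl2 and Cxcl3) were higher.

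Within neutrophils, Cxcl2 and Cxcl3 varied in the opposite direction to Cxcr2 along a list of genes reported for tumour neutrophils. The list was Ccl3, Ccl4, Cstb, Ctsb, Vegfa, Cd274, Siglecf, Atf3, Hilpda and Spp1. Its most abundant genes, which weigh most in its summed share, were Ccl4 (15612 and 7042 CPM) and Ccl3 (11083 and 4368 CPM). The list did not move as a whole between the libraries. Among its genes at 10 CPM or more on average, ratios ran from 0.568 for Atf3 to 3.51 for Spp1. Ccl4 had 2.22 and Ccl3 had 2.54. When Control neutrophils were divided into 3 bins of equal size by the share of their UMIs in this list, Cxcl2 stood at 12951, 30404 and 53064 CPM in the low, middle and high bins. At the same cuts Motolimod neutrophils stood at 17658, 29867 and 61638 CPM. The Motolimod over Control ratio was therefore 1.36 (1.32 to 1.41) in the low bin, 0.982 (0.963 to 1.00) in the middle bin and 1.16 (1.15 to 1.18) in the high bin, below the ratio of 1.49 over all neutrophils in each. The high bin held 61.1% of Motolimod and 33.4% of Control neutrophils.

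Cxcr2 ran the other way, at 805, 350 and 163 CPM with Motolimod and at 664, 353 and 257 CPM in Control from the low to the high bin. Its ratio was 1.21 (1.03 to 1.43) in the low bin, 0.993 (0.823 to 1.20) in the middle bin and 0.635 (0.513 to 0.793) in the high bin. Along this list the lower Cxcr2 of Motolimod neutrophils thus appeared in the high bin. Cxcl3 stood at 2734, 7549 and 10741 CPM with Motolimod and at 1635, 5104 and 9071 CPM in Control, with ratios of 1.67, 1.48 and 1.18. These order relations held within each library and kept their direction after cells were thinned to 1000 UMIs. Cxcl1 did not follow them: with each library divided into its own 3 bins it stood at 43.2, 36.9 and 129 CPM with Motolimod and at 27.1, 30.2 and 21.0 CPM in Control, the Control values from 8 to 12 UMIs each.

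Ordering the neutrophils by genes known from marrow and blood neutrophils (Retnlg, Mmp8, Ly6g, Camp, Ltf, Padi4, Ngp, Wfdc21 and Ifitm6) gave another picture of the ratios. Cxcr2 stood at 231, 281 and 372 CPM with Motolimod and at 238, 491 and 560 CPM in Control from the low to the high bin. Its ratio was 0.970 (0.789 to 1.20) in the low bin, 0.571 (0.477 to 0.686) in the middle bin and 0.664 (0.558 to 0.793) in the high bin, so along these genes the lower Cxcr2 was seen in the middle and high bins. Cxcl2 ratios were 1.46, 1.43 and 1.48, close to the 1.49 over all neutrophils. Cxcl3 and Cxcr2 did not oppose each other with Motolimod, where Cxcl3 stood at 8470, 9840.5 and 10149 CPM. Where the lower Cxcr2 lay among neutrophils therefore depended on the genes used to order them.

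**Figure D3:**
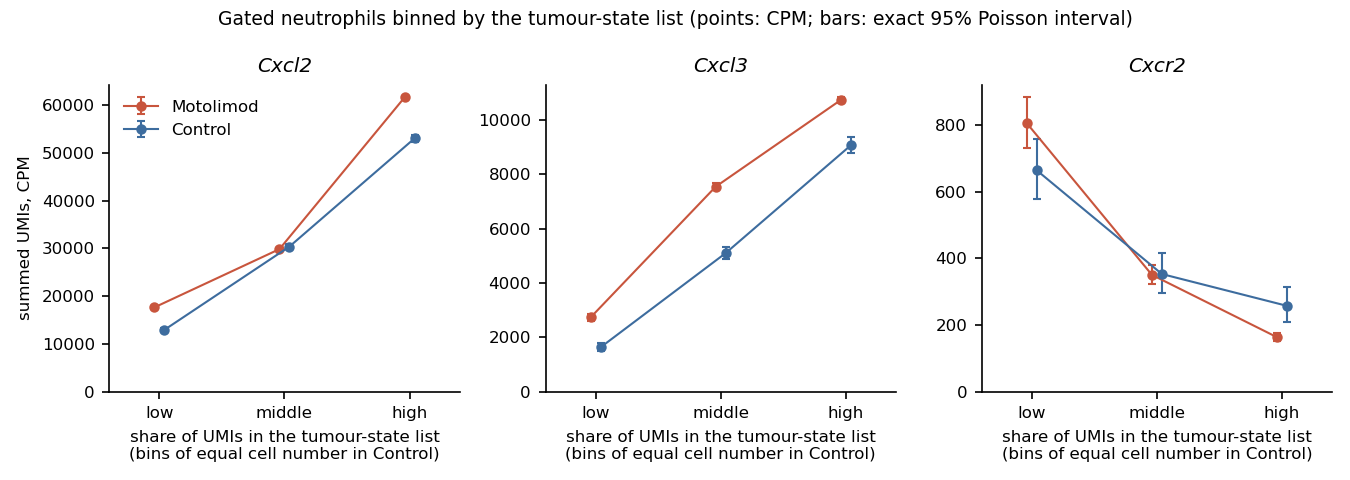
Cxcl2, Cxcl3 and Cxcr2 (CPM) in gated neutrophils binned by the share of their UMIs in the tumour neutrophil list, with bins cut so that each holds the same number of Control cells. Points are summed CPM and bars exact 95% Poisson intervals. Cxcl2 and Cxcl3 climb to 61638 and 10741 CPM in the high bin with Motolimod, while Cxcr2 declines to 163 CPM there.

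Clusters of all cells, built without the 5 members, gave a further division of the neutrophils. The cluster led by Lcn2, Cstdc4 and Ccl3 held 56.6% of Motolimod neutrophils (1460 cells) and 4.84% of Control neutrophils (22 cells). Since nearly all of its cells came from 1 library, it may reflect that library more than a cell type. In it Cxcl2 stood at 48262 and 47016 CPM and Cxcr2 at 123 and 349 CPM, the Control value from 15 UMIs, and with so few Control cells no ratio is given. The cluster led by Retnlg, G0s2 and S100a9 held 27.5% and 58.0% of neutrophils. Its Cxcl2 stood at 66937 and 45129 CPM, a ratio of 1.48 (1.464 to 1.503), and its Cxcr2 at 408 and 331 CPM, a ratio of 1.23 (1.05 to 1.45). The cluster led by Ngp, Lrg1 and Csf3r, genes of younger neutrophils among them, held 14.9% and 33.8%. It had the least Cxcl2, 20122.5 and 16864 CPM, and the most Cxcr2, 732 and 799 CPM, a ratio of 0.917 (0.782 to 1.08). The Cxcr2 ratio below 1 over all neutrophils was therefore not found in the 2 clusters that held most Control neutrophils, beyond counting error.

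The macrophage ratios also changed with the composition of the gate. Clustering of gated macrophages without the members gave cluster 2, led by Igkc, Ighg2b, Tppp3 and Cbr2, and cluster 7, led by Gpnmb, Mmp8 and Slpi. Cluster 2 held 37.7% of Motolimod macrophages and 2.44% of Control macrophages, and cluster 7 held 15.3% and 0.686%. These shares are descriptions, since 1 library supplied most cells of each. Cluster 2 had 4090 and 4162 CPM of Cxcl2, a ratio of 0.983 (0.946 to 1.02), and cluster 7 had 6216 CPM from 582 cells and 3950 CPM from 27 cells. Cluster 6, led by Saa3, Cd209f and Lyve1, genes of resident macrophages among them, went the other way, with 1976 and 3148 CPM and a ratio of 0.628 (0.603 to 0.653).

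In the other macrophage clusters with at least 50 cells in each library, Cxcl2 was higher with Motolimod. Cluster 8, led by Cd300e and Clec4b1, had the largest ratio, 3.25 (2.92 to 3.61), at 410 and 126 CPM. These levels were low: T cells held 288 CPM with Motolimod and 186 CPM in Control, so the Control level of cluster 8 lay below theirs. Cluster 3, led by Mmp12 and Tnfrsf9 and also by Arg1 and Spp1, had 2489 and 1075 CPM, a ratio of 2.32 (2.24 to 2.39). Ratios were 2.09 in cluster 4 (Ctsk, Mmp9), 1.83 in cluster 10, 1.82 in cluster 1 (Ly6i, Ass1) and 1.57 in cluster 5, led by histone and cell-division genes. The leading genes of cluster 10 (Gzma, Nkg7, Ltb and Ccl5) are T and NK cell genes, and without its 53 Motolimod and 138 Control cells the macrophage ratios were 2.34 for Cxcl1, 3.27 for Cxcl2 and 3.70 for Cxcl3. With both libraries given the Control mix of the clusters with at least 50 cells in each, which leaves out cluster 7, the macrophage ratio was 1.74 for Cxcl2, 2.02 for Cxcl3 and 1.12 for Cxcl1, against 3.25, 3.75 and 2.33 as measured. Cxcl1 was lower with Motolimod in cluster 2, at 151 and 249 CPM, a ratio of 0.607 (0.516 to 0.716), and in cluster 6, at 69.2 and 161 CPM, a ratio of 0.430 (0.349 to 0.527).

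**Figure D4:**
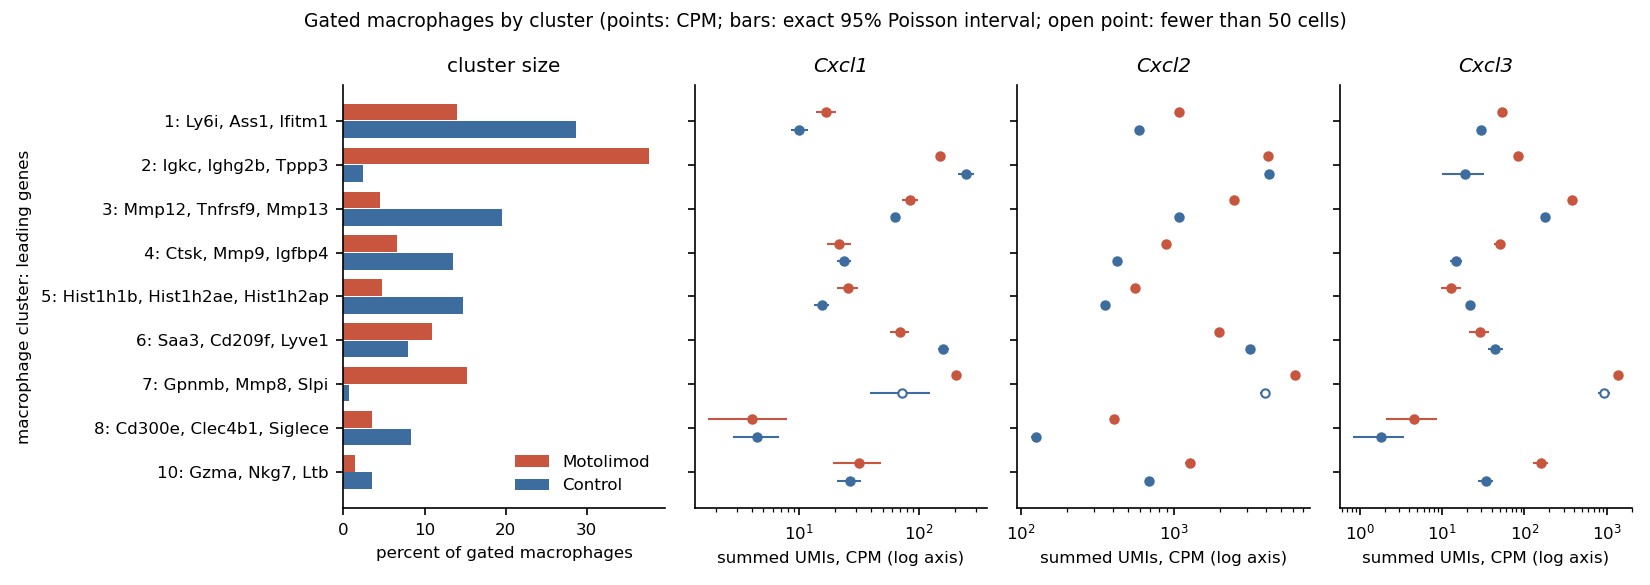
Gated macrophages by cluster, Motolimod above Control in each row. The left panel gives each cluster's percent of gated macrophages, and the others its CPM (log axis) of Cxcl1, Cxcl2 and Cxcl3 with exact 95% Poisson intervals, open where under 50 cells were counted. Clusters 2 and 7, largest in share with Motolimod, carry high Cxcl2 in both libraries. Clusters 9, 11 and 12, set aside for markers of another lineage, and clusters with under 50 cells in each library are not shown.

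In macrophages a cell with Cxcl1 or Cxcl3 had Cxcl2 more often than a cell without it, although most cells with Cxcl2 had neither Cxcl1 nor Cxcl3. Among Motolimod macrophages thinned to 1000 UMIs, 93.8% (89.9 to 96.5) of cells with a Cxcl1 UMI also had Cxcl2, against 60.0% (58.3 to 61.6) of cells without Cxcl1. In Control the shares were 80.2% (71.9 to 86.9) and 27.7% (26.3 to 29.1). Cells with Cxcl3 had Cxcl2 in 92.0% with Motolimod and 87.2% in Control. Of macrophages with Cxcl2, 9.73% with Motolimod and 8.46% in Control had Cxcl1, and 10.9% and 6.54% had Cxcl3. In neutrophils ligand and receptor were set apart in the Motolimod library only in part. There 59.2% (54.6 to 63.7) of neutrophils with a Cxcr2 UMI had Cxcl3, against 72.0% (70.0 to 74.0) of those without. In Control the shares were 48.6% (40.0 to 57.2) and 51.2% (45.3 to 57.2), which overlapped.

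The wider pathway was described with 43 genes of CXCR2 signalling, neutrophil growth factors, NF-kB activation and neutrophil movement. In macrophages 31 were at 10 CPM or more, of which 9 were higher with Motolimod by 1.5-fold or more and 1 lower by as much, beside 8.41% and 4.99% of all genes, with a median log2 ratio of 0.22 against 0.04 over all genes. The highest were Mmp8 (neutrophil collagenase, 30.7 and 6.14 CPM, ratio 5.01) and Pf4 (platelet factor 4, 2378 and 585 CPM, ratio 4.07). Ppbp, the precursor of another Cxcr2 ligand, followed at 21.8 and 5.96 CPM (ratio 3.66). Platelet markers were near 0: 5 genes (Itga2b, Gp9, Gp1bb, Gp6 and Treml1) summed to 0.573 and 0.680 CPM in these macrophages. The cytokine gene Tnf stood at 136 and 60.8 CPM (ratio 2.23) and Csf3r, the G-CSF receptor, at 33.4 and 15.6 CPM (ratio 2.14). Nfkbiz, an NF-kB cofactor, stood at 300 and 153 CPM (ratio 1.96). Mmp8, Pf4 and Ppbp were among the leading genes of macrophage cluster 7. They stood at 191, 7018 and 115 CPM there and at 7.74, 969 and 7.35 CPM in other macrophages. Cluster 7 held 15.3% of Motolimod and 0.686% of Control macrophages, so these 3 ratios also change with the composition of the gate.

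The lowest macrophage ratios were those of Mmp9 (gelatinase B, 3.63 and 27.7 CPM, ratio 0.131) and Il1a (17.7 and 22.6 CPM, ratio 0.785). Rac2, a GTPase of neutrophil movement, had 0.835, the arrestin gene Arrb2 0.839, the TNF receptor gene Tnfrsf1a 0.909 and Gnai2, a G protein subunit that couples to Cxcr2, 0.930. Il1b, a strong inducer of these ligands, stood at 999 and 956 CPM in macrophages, a ratio of 1.05 (1.03 to 1.06). The Mmp9 level was uneven over macrophages. Over both libraries it was 107 CPM in macrophage cluster 4 and 4.77 CPM in other macrophages. Cluster 4 held 6.62% of Motolimod and 13.5% of Control macrophages.

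In neutrophils 33 of the 43 genes were at 10 CPM or more, of which 7 were higher with Motolimod by 1.5-fold or more and 5 lower by as much, with a median log2 ratio of −0.10 against 0.13 over all genes. Over all neutrophil genes 24.7% were higher and 15.5% lower, so these counts lie near the background and say nothing particular about the list. Csf3, the G-CSF gene, had 510 UMIs (85.5 CPM) in Motolimod neutrophils and 1 UMI (0.901 CPM) in Control neutrophils, a ratio of 94.9 (17.0 to 3757). Tnf stood at 957 and 187 CPM (ratio 5.11), Mmp8 at 213 and 67.6 CPM (ratio 3.15) and Il1a at 597 and 193 CPM (ratio 3.09). Il1rn, the interleukin-1 receptor antagonist gene, had a ratio of 2.21, and Plcb2, a phospholipase of chemokine signalling, had 1.84 (0.961 to 3.96).

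At the low end were the heparan sulfate core protein gene Sdc4 (12.2 and 35.1 CPM, ratio 0.348), the selectin ligand gene Selplg (176 and 432 CPM, ratio 0.406) and the receptor kinase gene Grk6 (7.04 and 17.1 CPM, ratio 0.411). Zfp36, whose product speeds the decay of many cytokine messages, stood at 1425 and 2721 CPM, a ratio of 0.524 (0.502 to 0.546). Cxcr1, the other receptor of this ligand family, stood at 34.9 and 57.6 CPM, a ratio of 0.605 (0.455 to 0.814), and Tnfrsf1a had 0.690. A sum of 12 early-response genes that also respond to tissue digestion (Fos, Jun, Egr1, Atf3, Hspa1a and others) was 15414 and 21260 CPM in neutrophils, a ratio of 0.725, and 7954 and 6078 CPM in macrophages, a ratio of 1.31. The 12 genes did not move together. Their ratios ran from 0.465 for Fos to 1.29 for Egr1 in neutrophils and from 0.558 for Hspa1b to 3.37 for Egr1 in macrophages. The part of this list in the ligand ratios was not tested.

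For each member, the 5 genes most alike over 12 sums (6 gates of at least 50 cells in both libraries) were taken by Pearson's r of log2(CPM + 10) among 5053 genes. The 12 points come from 2 libraries and share their depth, so r is a description. Cxcr2 was closest to Ccdc126, Rdh12, Prok2, Adgrg3 and Gm20234, with r from 0.994 to 0.996, a pattern set by neutrophils against the other gates. Cxcl2 was closest to Flcn, Osbpl9, Tiparp, Cd44 and Acod1, with r from 0.967 to 0.975. Cxcl3 was closest to Smox, Slfn4, Lpin2, Tmem38b and Bcl2l11 (0.966 to 0.981). Cxcl1 was closest to Pdpn, Padi4, Ckap4, Eno1 and Thra (0.942 to 0.962), and the rare Cxcl5 to Fblim1, Padi4, Trim47, Dst and Morf4l2 (0.792 to 0.845). Among the members themselves r was 0.90 for Cxcl2 with Cxcl3, 0.84 for Cxcl2 with Cxcr2 and 0.18 for Cxcl1 with Cxcl2.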

How the data were processed

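The authors deposited raw UMI counts per gene and barcode for each library. Per the file headers the counts came from Cell Ranger 7.1.0, while the submitters' processing notes name Cell Ranger 5.0.1 and mm10. How intron reads were handled is not given in the sources used here. The 5 members and all lists were chosen with earlier results of these data known, and gate thresholds were set after seeing the data.

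Barcodes needed 300 genes, 800 UMIs and no more than 10% of UMIs from mitochondrial genes. A gate needed 2 or 3 markers of a fixed list and a minimum marker share of UMIs. Set aside were 3 clusters of gated macrophages (7.75% of the gate with Motolimod, 2.60% in Control). Among the 10 leading genes of each, markers of 1 other lineage, neutrophils or any other gated class, outnumbered macrophage and monocyte markers. Scrublet called 0 doublets in each library and so had not worked. Levels have exact Poisson intervals, ratios exact conditional binomial intervals and shares Clopper-Pearson intervals, at 95%. Ratios needed 100 cells per gate and library, or 50 per macrophage cluster. Named pathway genes were the 6 highest and 6 lowest ratios at 10 CPM or more. The method was tested on simulated data. The marrow and blood neutrophil list is reported without 1 of its genes. Python 3.11.15, numpy 2.4.6, scipy 1.17.1 and scanpy 1.11.5 were used.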

Additional observations from a re-analysis of the deposited data

Results flagged for a closer look

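Barcodes that passed the filter but no gate lie outside the comparisons above, yet levels of 3 members in them were higher with Motolimod than in Control. In 789 Motolimod and 385 Control ungated barcodes, Cxcl2 stood at 13460.4 and 1954 CPM, a ratio of 6.89 (6.73 to 7.05). Cxcl3 stood at 2717 and 348 CPM, a ratio of 7.82 (7.39 to 8.27), and Cxcr2 at 14.1 and 3.34 CPM, a ratio of 4.21 (2.26 to 8.32). Cxcl1 went the other way, at 108.4 and 217 CPM, a ratio of 0.501 (0.441 to 0.568). Of these barcodes, 428 (54.2%) with Motolimod and 38 (9.87%) in Control fell into clusters made mostly of gated neutrophils. There Cxcl2 stood at 39944 and 58179 CPM, while S100a8 and S100a9 together stood at 7436 and 5512 CPM, against 62077 and 73422 CPM in gated neutrophils. The part of this difference in makeup in the 3 ratios was not tested.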

How the results depend on the processing

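No paired analysis was possible because each group has 1 library. The intervals cover counting error only, so differences between mice or libraries cannot be told apart from treatment. Rare counts (Cxcl5, Cxcr2 outside neutrophils, Cxcl1 in neutrophils) rest on few cells, and levels in gates under 100 cells carry no ratio.

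The ratios of Cxcl1, Cxcl2 and Cxcl3 in macrophages, and of Cxcl2 and Cxcl3 in neutrophils, stayed above 1 in every setting run for them, and the Cxcr2 ratio in neutrophils below 1, while 2 other ratios reversed. These were Cxcl1 in neutrophils with mixed droplets kept (0.886) and Cxcl1 in monocytes with doubled gate thresholds (0.781). The cause was not tested for these or for the shifts that follow. With mixed droplets kept, the neutrophil ratios of Cxcl2, Cxcl3 and Cxcr2 were 2.18, 2.55 and 0.920, the macrophage ratios of Cxcl1 and Cxcl2 1.68 and 3.44, and the neutrophil share of Cxcl2 UMIs 66.9% with Motolimod and 34.6% in Control. With the stricter filter (1000 genes, 2000 UMIs and 5% mitochondrial UMIs) the neutrophil ratios were 1.34, 1.85 and 0.923 and the shares 26.9% and 8.36%. With gate thresholds doubled the neutrophil ratios of Cxcl2 and Cxcl3 were 1.64 and 1.89, the macrophage ratios of Cxcl1, Cxcl2 and Cxcl3 2.13, 3.31 and 3.34, and the shares 56.8% and 26.3%. With Leiden classes in place of gates the neutrophil ratios of Cxcl2, Cxcl3 and Cxcr2 were 1.39, 1.57 and 0.592, the macrophage ratios of Cxcl2 and Cxcl3 3.15 and 4.02, and the shares 67.6% and 29.99%. Without the highest Scrublet scores the macrophage Cxcl2 ratio was 3.29 and the shares 66.0% and 28.3%. After thinning to 1000 UMIs the neutrophil ratios were 1.40, 1.57 and 0.562, the macrophage ratios of Cxcl1, Cxcl2 and Cxcl3 2.18, 3.06 and 3.47, and the shares 73.5% and 57.6%.

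As means over cells, the ratios of Cxcl2 and Cxcl3 were 1.44 and 1.60 in neutrophils and 3.07 and 3.43 in macrophages. With median-of-ratios scaling Cxcl2 and Cxcl3 had 1.36 and 1.54 in neutrophils, and Cxcl2 3.15 in macrophages. With the T cell level subtracted, the macrophage ratios of Cxcl1, Cxcl2 and Cxcl3 were 2.50, 3.84 and 41.0. The value of 41.0 carries no weight, since Cxcl3 in Control stood at 54.9 CPM in macrophages and 52.8 CPM in T cells. Little was thus left to divide by. Some settings were added after seeing the data. In cells with a middle number of UMIs the neutrophil ratios of Cxcl2, Cxcl3 and Cxcr2 were 1.36, 1.39 and 0.572 and the macrophage ratios of Cxcl2 and Cxcl3 2.24 and 2.47. In cells without S100a8 or S100a9 the macrophage Cxcl2 ratio was 3.33. With the set-aside macrophage clusters kept, Cxcl2 and Cxcl3 had 3.44 and 4.004. Without macrophage cluster 7, Cxcl1, Cxcl2 and Cxcl3 had 1.89, 2.67 and 1.43, and without cluster 10 2.34, 3.27 and 3.70. With the Control cluster mix, Cxcl1, Cxcl2 and Cxcl3 had 1.12, 1.74 and 2.02.

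Counts of genes at least 1.5-fold apart moved with the minimum level. Without a minimum, 2627 genes were higher and 3048 lower in neutrophils, and 2911 higher and 1983 lower in macrophages, against 394, 335, 207 and 117 at a minimum of 50 CPM and 1302, 818, 614 and 364 at 10 CPM. At 50 CPM, 0 pathway genes were lower in macrophages and 2 in neutrophils. Over all values recomputed, 179 moved by less than their counting interval, 279 by more and 2 reversed.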
